A study of Saccharomyces cerevisiae with 10 samples.

Results

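The autophagy genes of budding yeast were followed on mRNA arrays while a culture left glucose for ethanol. The members are the genes whose probe set carries an ATG symbol with a number in the platform annotation. There are 34 of them among 5449 measured genes, and each is represented by 1 probe set. The rule reads the gene name and no intensity, though the members were chosen with earlier results of these data known. The RNA came from a pool of barcoded protein‐fragment complementation strains (BC‐PCA strains) of Saccharomyces cerevisiae, which are diploids of S288c background. Each strain carries a barcode and a pair of proteins fused to the fragments of a methotrexate‐resistant reductase, so that growth in methotrexate depends on the binding of that pair. Cells were grown in minimal medium with dextrose, then moved to minimal medium with ethanol and methotrexate at 30 °C, and were harvested at the move (0 h) and 0.5, 1, 4 or 12 h later, with 2 arrays a time and 10 arrays in all.

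All 5 groups share the pool, the background, the nitrogen source (ammonium sulfate) and the handling, and differ in the time since the move. The RNA therefore averages over many strains. ATG18, ATG20 and ATG27 are among the genes whose proteins carry a reductase fragment in some strains of the collection, and their mRNA includes tagged copies. By the labels the arrays sharing a time are biological replicates, yet no source says whether separate cultures were grown, so each p‐value measures the spread between arrays, which may be technical. The study describes the pre‐culture as selective in its results and as non‐selective in its methods. A difference from 0 h thus cannot be told apart from the start of methotrexate. No culture was kept in dextrose over the same hours.

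Autophagy wraps a piece of cytoplasm or an organelle in a double membrane and delivers it to the vacuole, the digestive compartment of yeast. The Atg1 kinase complex starts the process, vesicles with the membrane protein Atg9 bring in lipid, a lipid kinase marks the growing membrane, and a chain of enzymes attaches the small protein Atg8 to it. Receptor proteins then tie selected cargo to Atg8, from vacuolar enzymes to mitochondria, peroxisomes and endoplasmic reticulum. Yeast is known to start autophagy when nutrients run short, and to use the same core for the cytoplasm‐to‐vacuole targeting pathway (Cvt pathway) in well‐fed cells.

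The labels were checked on genes with a known response. ADH2, the alcohol dehydrogenase that consumes ethanol, rose from 83.8 and 25.9 at 0 h to 12432 and 8141 at 0.5 h, and the glucose transporter gene HXT1 fell from 2547 and 3268 to 209 and 376. Of 6 genes known to be shut in diploid cells, STE2, STE3, STE5, MFA1, MFA2 and HO, each lay on average above only 5.87 to 18.1% of the genes on its array. STE2 nevertheless read 254 and 276 at 0 h, and between 41.3 and 103 at later times. MFA1 read 277 and 172 at 0 h and 52.7 to 113 later, and MFA2 read 179 and 113 and then 23.2 to 85.0. By limma, 3 of the 6 genes were lower at 0.5 h and 4 at 12 h, beside 32.7% and 22% of all genes. Array medians ran from 316 to 351, and the 2 arrays of a time correlated at 0.977 to 0.985 over all genes. Values are RMA intensities on a linear scale, and RMA sets all arrays to a like distribution, so that a change in total mRNA per cell cannot be seen.

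Within 0.5 h of the move, 19 of the 34 autophagy genes rose and 2 fell, against 30.1% of all genes that rose and 32.7% that fell. The threshold was an adjusted p under 0.05, from limma over all 5449 genes. At 1 h, 19 were higher and 3 lower than at 0 h, with 29.3% and 33.4% of all genes. At 4 h, 13 were higher and 5 lower (19.4% and 23.2% of all genes), and at 12 h 8 were higher and 7 lower (21.4% and 22% of all genes). In the same order of times the members had median log2 fold changes of 0.81, 0.80, 0.42 and 0.00, and all genes had −0.05, −0.06, −0.09 and −0.05. The members thus held a larger share of rises than all genes at 0.5, 1 and 4 h and a smaller share of falls, and at 12 h both shares were close to those of all genes. In a pool of strains, a change in the make‐up of the pool and a change within cells cannot be told apart. The counts at 4 and 12 h moved with single arrays, and in each case given here fewer of all genes were called as well. Without replicate 2 of 4 h, 8 genes were higher and 1 was lower at 4 h, the number lower at 4 h was 2 or 3 without either 0 h array or replicate 1 of 4 h, and without replicate 2 of 0 h 5 genes were higher at 12 h.

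**Figure D1:**
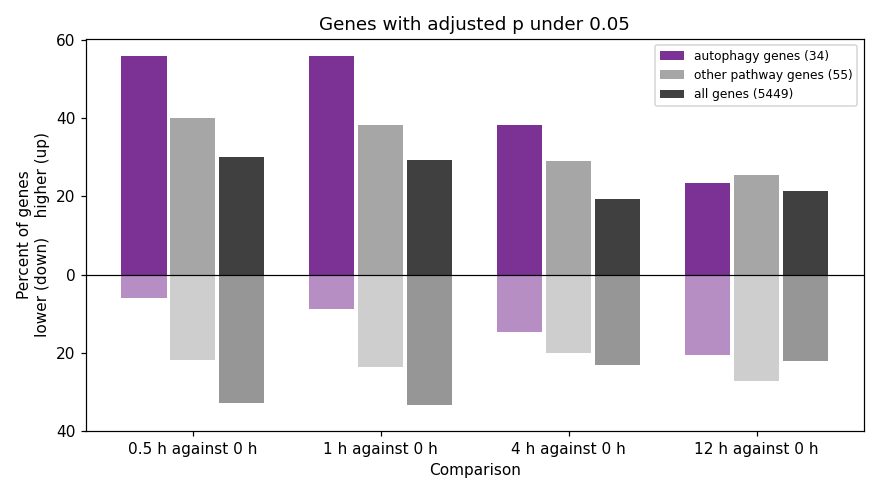
Share of genes with an adjusted p under 0.05 (limma) against 0 h at each time, higher above the line and lower below it, for the 34 autophagy genes, 55 other genes of the pathway and all 5449 genes. The autophagy genes stand at 55.9% higher at 0.5 and 1 h and at 23.5% at 12 h.

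Over the course, 19 members were higher than at 0 h at some time, 8 were lower at some time, 7 passed at no time, and no member was called in both directions. The same tally was not made over all genes, so it gives no comparison with them. The F test over the 4 contrasts passed for 26 of 34, with 70.6% of all genes passing. ATG9, ATG10, ATG17, ATG23, ATG27, ATG34, ATG36 and ATG39 were higher at all 4 times. ATG3, ATG7, ATG32, ATG33 and ATG40 were higher from 0.5 to 4 h, and ATG4, ATG8, ATG14, ATG20, ATG21 and ATG26 at 0.5 and 1 h. ATG13 and ATG41 were lower at all 4 times. ATG2 and ATG31 were lower at 4 and 12 h, ATG18 at 1 and 4 h, and ATG1, ATG22 and ATG38 at 12 h alone. The genes called at no time were ATG5, ATG11, ATG12, ATG15, ATG16, ATG19 and ATG29.

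**Figure D2:**
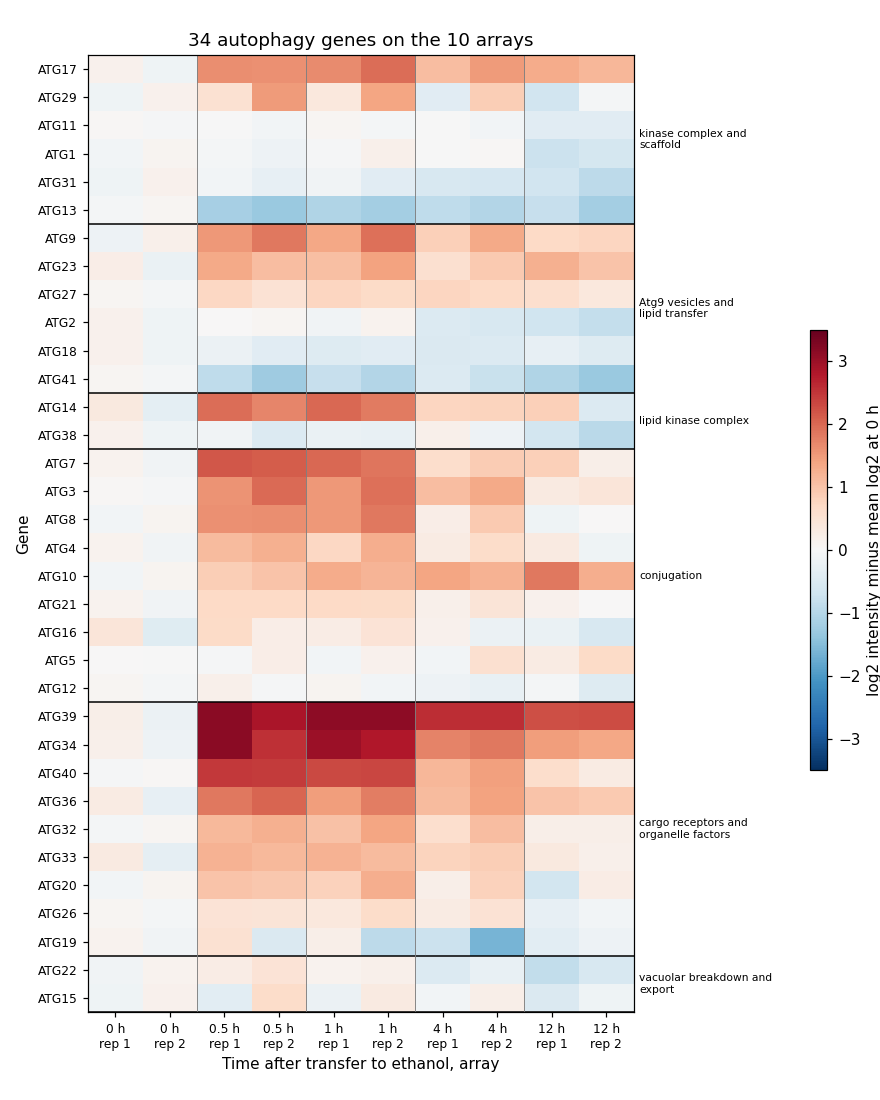
Log2 intensity of the 34 autophagy genes on each of the 10 arrays, minus the mean log2 intensity of the gene at 0 h (red higher, blue lower), grouped by role. The receptor genes ATG39, ATG34 and ATG40 are the deepest red at 0.5 and 1 h, ATG13 and ATG41 stay blue, and ATG19 differs between the 2 arrays of 0.5, 1 and 4 h.

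The receptors and organelle factors held the largest rises. Of 9 such genes, 8 rose by 0.5 h and none fell, with a median log2 fold change of 1.20. Of all genes 30.1% rose and 32.7% fell by then. ATG39 encodes the receptor for the nuclear envelope and the perinuclear endoplasmic reticulum. It read 391 and 299.8 at 0 h, 3045 and 2463 at 0.5 h, 2992 and 2979.6 at 1 h, 2067 and 2041 at 4 h, and 1630.0 and 1660.3 at 12 h. Every later array was far above both 0 h arrays. The log2 fold change was 3.12 ± 0.18 (SE) at 1 h (adjusted p = 2.5e-06, limma) and 2.27 ± 0.18 at 12 h (adjusted p = 1.6e-05). Among all genes 121 rose more at 0.5 h. ATG40 encodes a receptor for the cortical and cytoplasmic endoplasmic reticulum. It read 177 and 184 at 0 h, 1007 and 990.3 at 0.5 h, 901 and 918 at 1 h, 405 and 492 at 4 h, and 278 and 219.9 at 12 h. The early rise was 2.47 ± 0.17 on the log2 scale (adjusted p = 5.5e-06), and at 12 h the difference from 0 h was 0.46 ± 0.17 (adjusted p = 0.054). ATG40 fell again between 1 and 4 h (−1.03 ± 0.17, adjusted p = 0.0034), whereas the fall of ATG39 was −0.54 ± 0.18 (adjusted p = 0.048) and did not pass when any 1 array of the later times was left out.

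ATG36 and ATG32 encode the receptors for peroxisomes and mitochondria. ATG36 read 253 and 168 at 0 h, 738 and 839 at 0.5 h, 568 and 714 at 1 h, 442 and 549 at 4 h, and 414 and 386 at 12 h, with no overlap between 0 h and any later time. Its log2 fold change was 1.93 ± 0.22 at 0.5 h (adjusted p = 7.4e-05) and 0.96 ± 0.22 at 12 h (adjusted p = 0.0073), the latter not passing without replicate 2 of 0 h. ATG32 read 274 and 299 at 0 h, 631 and 680.2 at 0.5 h, 584 and 746 at 1 h, 431 and 599.6 at 4 h, and 332 and 329 at 12 h. Its rise was smaller, 1.20 ± 0.20 at 0.5 h (adjusted p = 0.00054), and its 12 h arrays lay above the 0 h arrays by 0.21 ± 0.20 (adjusted p = 0.42). ATG33, which encodes a mitochondrial outer membrane protein needed for mitophagy in stationary phase, had a log2 fold change of 1.18 ± 0.20 at 0.5 h and 0.26 at 12 h. At 4 h ATG32 did not pass without replicate 2 of 4 h, nor ATG33 without that array or replicate 2 of 0 h.

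ATG19 and ATG34 are neighbours on the chromosome and encode related receptors of the Cvt cargo. Atg19 carries aminopeptidase I (Ape1) and α‐mannosidase (Ams1) to the vacuole in growing cells, and Atg34 carries Ams1 under starvation. ATG34 read 132 and 104 at 0 h, 1045 and 688 at 0.5 h, 938 and 822 at 1 h, 393 and 423 at 4 h, and 324 and 298 at 12 h. All 8 later arrays lay above both 0 h arrays, and the log2 fold change was 2.85 ± 0.22 at 0.5 h (adjusted p = 8.9e-06) and 1.41 ± 0.22 at 12 h (adjusted p = 0.00078). ATG19 read 585 and 487 at 0 h, 771 and 379 at 0.5 h, 613 and 280.5 at 1 h, 318 and 172 at 4 h, and 410.1 and 474 at 12 h. Its arrays of 0.5, 1 and 4 h differed from each other by 1.02, 1.13 and 0.88 on the log2 scale, replicate 1 always the higher, and those of 0 and 12 h by 0.26 and −0.21. Its difference from 0 h was 0.02 ± 0.44 at 0.5 h (adjusted p = 0.97) and −1.19 ± 0.44 at 4 h (adjusted p = 0.052), where both arrays were below both 0 h arrays. The 4 h value passed without either 0.5 h array, without either 1 h array and without replicate 1 of 4 h. ATG34, its neighbour, was also higher in replicate 1 at 0.5 and 1 h but not at 4 h.

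**Figure D3:**
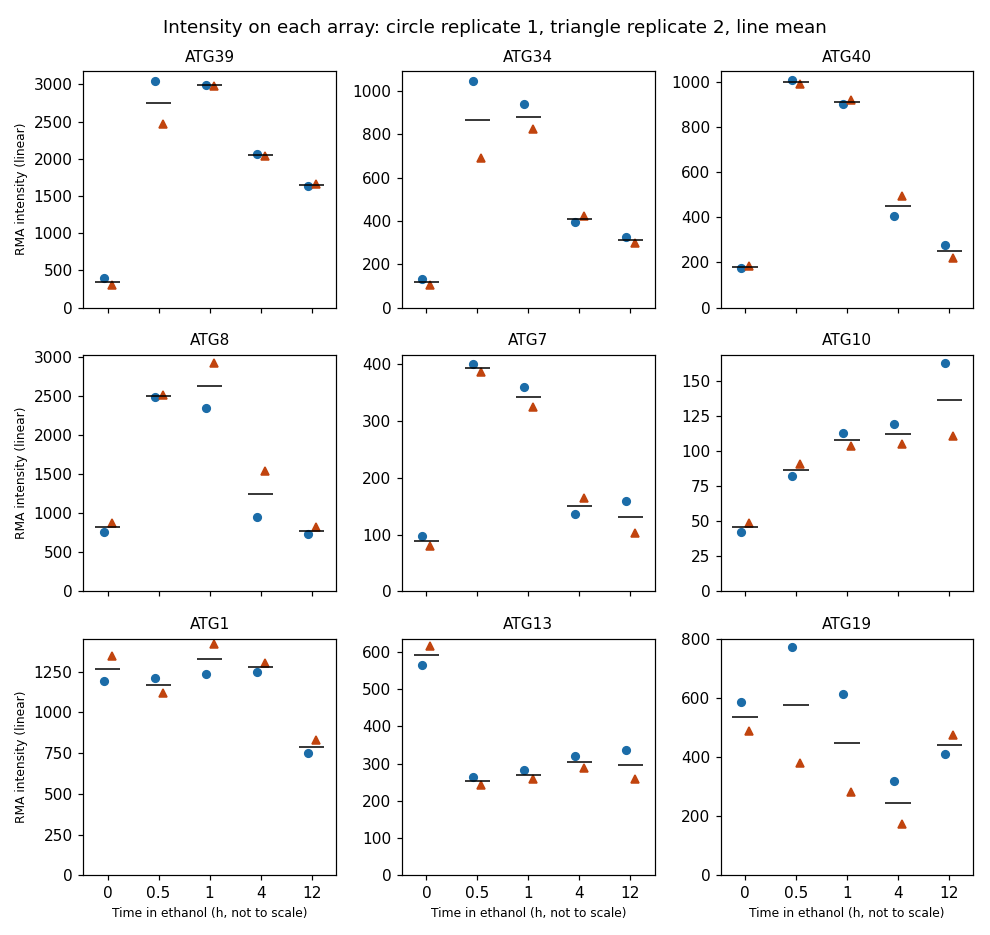
RMA intensity (linear scale from 0) of 9 autophagy genes on each array against time in ethanol, with circles for replicate 1, triangles for replicate 2 and a line for the mean. ATG39 is still at 1630.0 and 1660.3 at 12 h, ATG40, ATG8 and ATG7 come down after 1 h, ATG10 does not come down, ATG13 sits below its 0 h arrays throughout, and the arrays of ATG19 spread widely.

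The remaining genes of this group moved less. ATG20, a sorting nexin gene of the Cvt pathway, had a log2 fold change of 0.96 ± 0.31 at 0.5 h (adjusted p = 0.021), and ATG26, a sterol glucosyltransferase gene whose product takes part in peroxisome breakdown in Komagataella (Pichia) pastoris, had 0.46 ± 0.17 (adjusted p = 0.037). Neither passed at 4 or 12 h. Neither passed at 0.5 h once any array of 0 or 0.5 h was left out, the 1 h calls were lost without replicate 2 of 1 h or without a 0 h array, and from 0.5 to 12 h both fell (−1.16 and −0.64).

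The conjugation genes rose early except those of the Atg12–Atg5–Atg16 complex. Of 9 genes 6 rose by 0.5 h and none fell (30.1% and 32.7% of all genes), with a median log2 fold change of 0.93. ATG8 encodes the small protein that is bound to the membrane lipid phosphatidylethanolamine and anchors cargo receptors. It read 763 and 877 at 0 h, 2494 and 2512 at 0.5 h, 2344 and 2920.3 at 1 h, 952 and 1547 at 4 h, and 736 and 819.7 at 12 h. The 12 h arrays overlapped those of 0 h, and all 4 arrays of 0.5 and 1 h were above every other array. Its log2 fold change was 1.61 ± 0.23 at 0.5 h (adjusted p = 0.00024) and −0.07 ± 0.23 at 12 h (adjusted p = 0.82), and it fell by 1.69 ± 0.23 between 0.5 and 12 h (adjusted p = 0.00041).

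The enzymes that load Atg8 also rose early. ATG7 encodes the activating enzyme (E1) shared by Atg8 and Atg12. It read 97.3 and 80.8 at 0 h, 401 and 387 at 0.5 h, 359.7 and 325 at 1 h, 136 and 165 at 4 h, and 159 and 103 at 12 h. This was the largest rise of the group, 2.15 ± 0.22 at 0.5 h (adjusted p = 3.8e-05), and most of it was gone by 4 h (−1.19 ± 0.22 against 1 h, adjusted p = 0.0051). Its 4 h difference from 0 h, 0.76 (adjusted p = 0.022), did not pass without replicate 2 of 0 h or of 4 h. ATG3 encodes the conjugating enzyme (E2) that passes Atg8 to the lipid. It read 108 and 101 at 0 h, 309 and 416 at 0.5 h, 299.5 and 398 at 1 h, 221 and 263 at 4 h, and 129.9 and 141 at 12 h. Its log2 fold change was 1.77 ± 0.20 at 0.5 h (adjusted p = 7e-05) and 0.37 ± 0.20 at 12 h (adjusted p = 0.17), and every later array was above both 0 h arrays. ATG4, the protease that trims Atg8, and ATG21, a phosphoinositide‐binding protein that helps to place the conjugation enzymes, had 1.18 ± 0.24 and 0.69 ± 0.16 at 0.5 h (adjusted p = 0.0018 and 0.0044). ATG4 was dim, above 18.8% of the genes on average, and its log2 rise at 0.5 h ran from 0.81 to 1.31 over the alternatives.

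ATG10 encodes the conjugating enzyme that joins Atg12 to Atg5. It read 42.6 and 48.6 at 0 h, 82.2 and 91 at 0.5 h, 113 and 103 at 1 h, 119 and 105 at 4 h, and 163 and 111 at 12 h. ATG10 was dim, above 15.7% of the genes on average, and its log2 rise at 0.5 h ran from 0.51 to 1.02 over the alternatives. Its log2 fold change was 0.93 ± 0.20 at 0.5 h (adjusted p = 0.0029) and 1.56 ± 0.20 at 12 h (adjusted p = 0.00027), and it was the only member of the 34 called higher at 12 h than at 0.5 h (0.63 ± 0.20, adjusted p = 0.027), a call that was lost without either 0.5 h array or replicate 1 of 12 h. ATG5, ATG12 and ATG16, the parts of the complex itself, had log2 fold changes of 0.10, 0.08 and 0.45 at 0.5 h and 0.47, −0.25 and −0.40 at 12 h, with no call against 0 h (adjusted p = 0.13 or above). ATG16 was dim, with readings between 6.51 and 15.1 on all arrays, above 3.01% of the genes on average.

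The kinase complex and its scaffold did not move as a group. Of 6 genes, 1 rose and 1 fell by 0.5 h (30.1% and 32.7% of all genes). At 12 h 1 was higher and 3 were lower (21.4% and 22% of all genes). ATG1 encodes the protein kinase that starts autophagy. It read 1192 and 1344 at 0 h, 1212 and 1119.8 at 0.5 h, 1236 and 1419 at 1 h, 1249 and 1302 at 4 h, and 750.1 and 828 at 12 h. The arrays of the first 4 times overlapped, and both 12 h arrays were below all others (−0.68 ± 0.15 against 0 h, adjusted p = 0.006). ATG13 encodes the regulatory subunit that the TORC1 kinase holds in check by phosphorylation. It read 563 and 617 at 0 h, 265 and 241 at 0.5 h, 283 and 258 at 1 h, 321 and 287 at 4 h, and 337 and 257 at 12 h. All 8 later arrays were below both 0 h arrays, and the log2 fold change was −1.22 ± 0.17 at 0.5 h (adjusted p = 0.00024) and −0.96 ± 0.17 at 4 h (adjusted p = 0.0022).

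Atg17 forms, with Atg29 and Atg31, the scaffold used under starvation, and Atg11 is the scaffold used for selective cargo. ATG17 read 53 and 43.3 at 0 h, 148 and 145 at 0.5 h, 152 and 186 at 1 h, 102 and 136 at 4 h, and 117 and 106 at 12 h, above both 0 h arrays throughout. Its log2 fold change was 1.81 ± 0.19 at 1 h (adjusted p = 5.1e-05) and 1.22 ± 0.19 at 12 h (adjusted p = 0.0009). ATG11 read 629 and 593 at 0 h, 608 and 571 at 0.5 h, 645 and 579 at 1 h, 609 and 575 at 4 h, and 467 and 468 at 12 h. Only its 12 h arrays stood below the rest, by −0.39 ± 0.14 against 0 h (adjusted p = 0.054, limma), and that value passed under 6 alternative settings, median centring among them. ATG31 had −0.19 at 0.5 h and was lower at 4 h (−0.57, adjusted p = 0.029, lost without either 4 h array or replicate 2 of 0 h) and at 12 h (−0.80, adjusted p = 0.0057). ATG29 was dim, at 13 to 57.5, and its 1.01 ± 0.48 at 0.5 h did not pass (adjusted p = 0.093). ATG29 passed at 0.5 h without replicate 1 of 0.5 h, and its arrays differed by up to 1.26 on the log2 scale. Genes that act in 1 complex thus moved in opposite directions, ATG17 up and ATG13 down. ATG17 was dim, above 19.5% of the genes on average, and its log2 rise at 0.5 h ran from 1.005 to 1.76 over the alternatives.

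The genes of the Atg9 vesicles were split in the same way. Of 6 genes 3 rose and 1 fell by 0.5 h (30.1% and 32.7% of all genes). At 4 h 3 were higher and 3 lower (19.4% and 23.2% of all genes). ATG9 encodes the membrane protein that moves lipid between the leaflets of the growing membrane. It read 122 and 157 at 0 h, 395 and 495 at 0.5 h, 356 and 527 at 1 h, 247 and 348 at 4 h, and 225 and 235 at 12 h. No later array overlapped those of 0 h, with a log2 fold change of 1.67 ± 0.25 at 0.5 h (adjusted p = 0.0003) and 0.73 ± 0.25 at 12 h (adjusted p = 0.039), the latter lost without any 1 of the 0 h and 12 h arrays, with median centring and with log2(intensity + 50), and the 4 h call lost without replicate 1 of 0 h or replicate 2 of 4 h. ATG23 and ATG27 encode partners that help Atg9 travel. ATG23 read 90.6 and 66.1 at 0 h, 193 and 163 at 0.5 h, 162 and 205 at 1 h, 115 and 146 at 4 h, and 182 and 156 at 12 h. It was higher by 1.20 ± 0.22 at 0.5 h (adjusted p = 0.001) and 1.12 ± 0.22 at 12 h (adjusted p = 0.0028), and its 4 h call was lost without replicate 2 of 0 h or of 4 h. ATG27 had 0.60 ± 0.16 at 0.5 h (adjusted p = 0.0074, lost without replicate 1 of 0.5 h), 0.73 at 4 h and 0.47 at 12 h (adjusted p = 0.036, lost without 7 of the 10 arrays in turn, those of 0, 1 and 4 h and replicate 1 of 12 h).

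The other members of this group fell. ATG41, whose product binds Atg9 and which is also known as ICY2, read 5779 and 5337 at 0 h and between 2251 and 4016 later, with log2 fold changes of −1.07 ± 0.19 at 0.5 h (adjusted p = 0.00095), −0.92 at 1 h, −0.62 at 4 h and −1.18 at 12 h (adjusted p = 0.001). All 8 later arrays of ATG41 were below both 0 h arrays. ATG2, which encodes the lipid transfer protein of the growing membrane, had 0.03 at 0.5 h, −0.53 at 4 h (adjusted p = 0.03, lost without either 4 h array or replicate 1 of 0 h) and −0.76 at 12 h (adjusted p = 0.0053). ATG18, a phosphoinositide‐binding partner of Atg2, had −0.30 to −0.49 at the 4 times and was called lower at 1 and 4 h (adjusted p = 0.045 and 0.037). These ATG18 calls were lost when any 1 of 7 arrays was left out, and its F test did not pass (adjusted p = 0.12). The 4 h call of ATG41 was lost without either 0 h array or replicate 2 of 4 h.

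In the lipid kinase complex of autophagy, ATG14 and ATG38 encode the subunits particular to that complex, and they parted. ATG14 read 55.2 and 34.5 at 0 h, 170.1 and 144 at 0.5 h, 174 and 153 at 1 h, 73.4 and 74.4 at 4 h, and 77.6 and 31.6 at 12 h. Its arrays of 0.5 and 1 h lay above all others (1.84 ± 0.37 at 0.5 h, adjusted p = 0.0019), and those of 12 h overlapped 0 h (0.18 ± 0.37, adjusted p = 0.73). ATG14 was dim, above 16.8% of the genes on average, and its log2 rise at 0.5 h ran from 1.13 to 2.18 over the alternatives. ATG38 had −0.30 ± 0.20 at 0.5 h (adjusted p = 0.21) and −0.80 ± 0.20 at 12 h (adjusted p = 0.0096), a call lost without replicate 1 of 0 h or replicate 2 of 12 h. At the end of the route, ATG22, a vacuolar amino acid exporter gene, had 0.36 at 0.5 h (adjusted p = 0.1) and −0.71 at 12 h (adjusted p = 0.01, lost without replicate 2 of 0 h or replicate 1 of 12 h). ATG15, the lipase gene for the delivered membranes, was dim at 17.3 to 38.3 and was not called at any time.

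**Figure D4:**
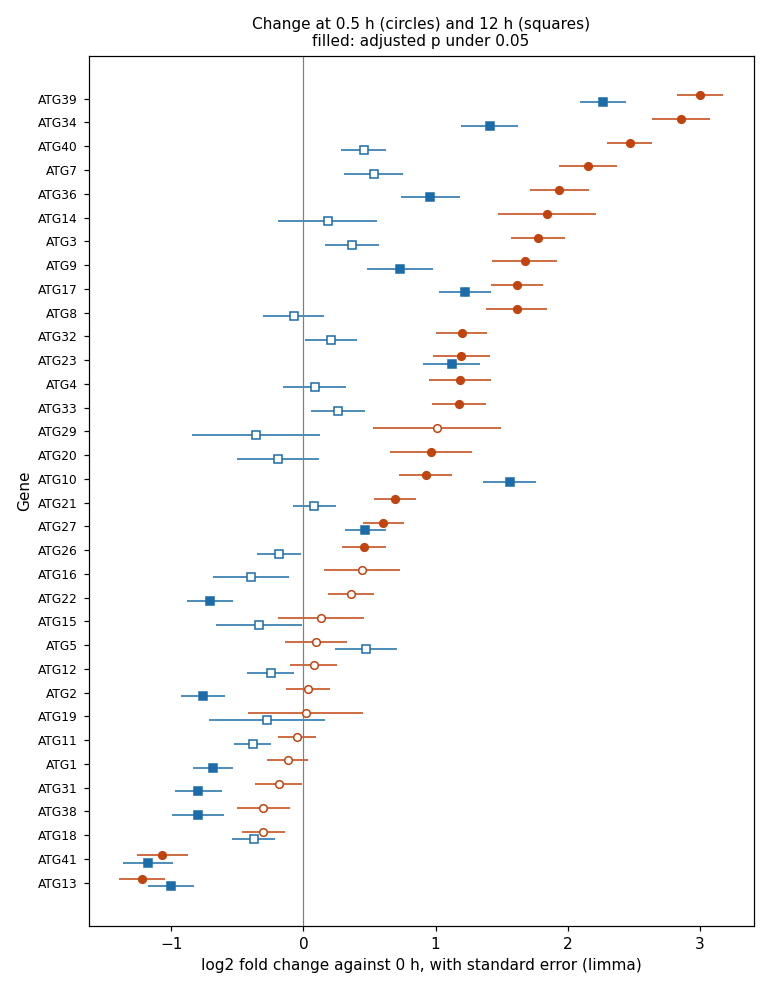
Log2 fold change against 0 h of each autophagy gene at 0.5 h (circles) and 12 h (squares), with the standard error from limma and filled symbols for an adjusted p under 0.05. Most circles of the upper genes lie to the right of their squares, while ATG10 has its square to the right, and the squares of ATG39, ATG34, ATG17 and ATG23 stay above 1.

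The rise came early and was partly undone later. Between 0.5 and 1 h no member was called by limma, at 0% of all genes higher and 0% lower, and none had an unadjusted p under 0.05 (61 and 29 of all genes did). Between 1 and 4 h 7 members fell, ATG2, ATG7, ATG8, ATG14, ATG34, ATG39 and ATG40, and none rose (0 at an unadjusted p under 0.05, with 12.8% of all genes lower and 14.5% higher). This count was 4 without either 0.5 h array, replicate 1 of 1 h or replicate 2 of 4 h, 3 without replicate 2 of 1 h and 2 without replicate 1 of 4 h. Between 4 and 12 h ATG1, ATG3, ATG38 and ATG40 fell and none rose (0 at an unadjusted p under 0.05, with 4.5% of all genes lower and 6.83% higher), a count that was 0 without replicate 2 of 4 h and 2 without replicate 1 of 12 h. Under these omissions fewer of all genes were called as well. With a replicate block in the fit, more members were called lower in each of these later steps, from 1 to 4 h and from 4 to 12 h. The block also raised the calls over all genes, in either direction, from 1485 to 1995 and from 617 to 1066. At 12 h against 0.5 h, 21 members were lower, the dim ATG16 and ATG29 among them, and 1 was higher, with 23% and 24.6% of all genes. The median log2 fold change was −0.69 for the members and 0.02 for all genes. Of the 19 genes that rose by 0.5 h, 19 were still called higher than at 0 h after 1 h, 13 after 4 h and 8 after 12 h, and 15 fell between 0.5 and 12 h. Of the 1642 genes of the whole array that rose by 0.5 h, 92.6, 59.2 and 53.7% were still higher at those times and 52.8% fell between 0.5 and 12 h. Genes picked as high on the 0.5 h arrays and then set against the same arrays are more prone to fall, in both sets. The largest falls from 0.5 to 12 h were those of ATG40 (−2.01 ± 0.17), ATG8 (−1.69 ± 0.23), ATG14 (−1.66 ± 0.37) and ATG7 (−1.62 ± 0.22). The contrasts against 0 h share the 0 h arrays, and those against 0.5 h the 0.5 h arrays, so these counts are not independent of each other.

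Across the 10 arrays the log2 values of several members ran close to those of ATG8. Pearson's r with ATG8 was 0.95 for ATG40 and ATG32, 0.94 for ATG21 and 0.93 for ATG4 and ATG3, and it was 0.16 for ATG10, −0.44 for ATG41 and −0.63 for ATG13. These values describe 5 times with 2 arrays each, which also share the scaling of their array. The 2 arrays of a time differed over the members by a median of 0.26, 0.18, 0.23, 0.27 and 0.22 on the log2 scale from 0 to 12 h, and over all genes by 0.20, 0.19, 0.21, 0.19 and 0.26. The members were thus wider than all genes at 0, 1 and 4 h, least so at 1 h, and narrower at 0.5 and 12 h.

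Other genes of the pathway were taken from lists drawn up from general knowledge, 55 genes in 5 lists. The calls of single genes in these lists were not checked under the alternatives or by leaving out arrays. By 0.5 h 22 of them rose and 12 fell (40% and 21.8%, beside 30.1% and 32.7% of all genes), and at 12 h 14 were higher and 15 lower (25.5% and 27.3%, near the 21.4% and 22% of all genes). Of 10 partners of the cargo and organelles 7 rose and 1 fell by 0.5 h (70% and 10%), and at 12 h 8 were higher and 1 lower (80% and 10%), where 3 of the 9 receptor and organelle genes were higher. The difference between these lists was not tested. AMS1, the cargo enzyme of Atg19 and Atg34, had a log2 fold change of 2.40 ± 0.27 (adjusted p = 6.2e-05), and APE4, another Cvt cargo, 2.27 ± 0.16 (adjusted p = 6.5e-06). APE1, the main Cvt cargo, had 0.51 ± 0.21 at 0.5 h (adjusted p = 0.052) and 0.98 ± 0.21 at 12 h (adjusted p = 0.0042). FIS1 and DNM1, which divide mitochondria and peroxisomes, had 2.09 and 1.65, CUE5, a receptor for ubiquitinated protein, 1.62, and PTC6, a mitochondrial phosphatase gene needed for mitophagy, 1.67. WHI2, also linked to mitophagy, was lower (−0.81 ± 0.16, adjusted p = 0.002), and LAP3 was higher and UTH1 not called at 0.5 h.

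Vacuolar breakdown genes rose in 4 of 6 cases by 0.5 h, 66.7% beside 30.1% of all genes. They were the proteases PEP4 (1.33), PRB1 (1.67) and PRC1 (1.65) and the amino acid exporter AVT3 (1.08), with CPS1 (0.40) and AVT4 (−0.33) not called. In the list of lipid kinase and sorting genes 2 of 7 rose, 28.6% and thus near the share of all genes. These were SNX4, a partner of Atg20 (1.64 ± 0.26, adjusted p = 0.00048), and VAC8 (0.75). VPS34, the kinase subunit itself, fell (−0.82 ± 0.18, adjusted p = 0.003). VPS30, a subunit gene shared with vacuolar sorting, had 0.04 (adjusted p = 0.85). Of 9 genes for fusion with the vacuole and tethering 5 rose, among them YPT1 (1.62) and YKT6 (1.01), and 3 fell, TRS85 (−1.36), CCZ1 (−0.81) and MON1 (−0.49). The 5 rises are 55.6% of the list, beside 30.1% of all genes, and the 3 falls are 33.3%, near the 32.7% of all genes.

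Among 23 genes upstream of the pathway 4 rose and 7 fell by 0.5 h, 17.4% and 30.4% beside 30.1% and 32.7% of all genes. The GATA factor genes GAT1 (−1.61 ± 0.23, adjusted p = 0.00026) and GLN3 (−1.28 ± 0.17, adjusted p = 0.00016), which act in nitrogen control, fell. NPR2, NPR3 and IML1, whose products restrain TORC1 when amino acids are short, fell by 0.82, 0.60 and 0.73 on the log2 scale. KOG1 (−0.49, adjusted p = 0.029, limma) and HRR25 (−0.55, adjusted p = 0.046) also fell. UME6, a repressor of ATG8, rose (0.92 ± 0.18, adjusted p = 0.0016), as did SNF1 (0.79) and SCH9 (0.79), the kinases of glucose and nutrient signalling, and TOR1 (0.44, adjusted p = 0.027). TOR1 was not called at 1 h (0.34, adjusted p = 0.068). These are mRNA levels, and neither the activity of the kinases nor autophagy itself was measured on the arrays.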

How the data were processed

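mRNA of the BC‐PCA pool was measured on Affymetrix yeast arrays after oligo(dT)‐primed labelling, 2 arrays at each of 5 times. The deposited intensity values, on a linear scale, were made by the authors with MAS5 and then RMA (background adjustment, normalization and probe set summary), with the RMA version not given in the sources used here. Their log2 was taken without further scaling or filter. Of 5716 probe sets 5498 carry 1 gene symbol and 218 carry none. The brightest probe set was kept for each gene, which left 5449 genes. Of these, 115 rest on probe sets marked as shared with other sequences, none of them an autophagy gene.

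All 10 arrays entered 1 fit with 5 time means in limma 3.58.1 (R 4.3.3), leaving 5 residual degrees of freedom, to which limma's prior added 4.33. The p‐values were adjusted by Benjamini‐Hochberg over all genes, with a threshold of 0.05. The limma code was tested on simulated data. The members and lists were chosen with earlier results of these data known. Role groups and lists came from general knowledge. Array values were given for the 14 called members with the largest change against 0 h and, whatever their rank, for ATG1, ATG8, ATG9, ATG11, ATG13, ATG19 and ATG32, of which ATG8, ATG9, ATG13 and ATG32 come under both parts. AMS1 and the other genes of the lists are named by the size of their change or their role, after their values were seen. The number of arrays limits the precision. Promoter and protein sequences were not analysed here. Alternatives were median centring, quantile normalization, log2(intensity + 50), a filter below the 20th percentile, the mean of all probe sets of a gene, removal of shared probe sets, limma‐trend, a replicate block, the arrays of the compared times alone, each array left out, and R64 symbols with synonyms. Figures were drawn with matplotlib 3.10.9.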

Additional observations from a re-analysis of the deposited data

How the results depend on the processing

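None of the 109 called log2 fold changes of the members changed sign under any alternative. Many of the alternatives could not have turned one. Limma‐trend, the replicate block, the compared times alone, the dim filter and the probe set choices leave the members' fold changes as they are. So does leaving out an array of a time outside the comparison. Of 60 values against 0 h that were not called, 26 changed sign in at least 1 alternative, all with a size of at most 0.40. ATG19 at 0.5 h ranged from −0.49 to 0.53 and ATG8 at 12 h from −0.18 to 0.03. Of 293 counts and medians under the alternatives 270 stayed within 1.5 times, or 0.1 for medians, and 23 moved. Of the genes' largest changes against 0 h under the alternatives, 600 kept their side of the threshold, 20 passed newly and 18 no longer passed. With the replicate block, 11 autophagy genes were lower at 4 h against 1 h (7 without it) and 8 at 12 h against 4 h (4 without it). Among all genes, called in either direction, the numbers were 1995 (1485 without it) and 1066 (617 without it). The main fit did not treat the replicate numbers as pairs, because the labels do not say that a number marks 1 culture. The paper describes aliquots harvested from a pool culture at the successive times. The correlation of the replicate deviations was positive for every pair of times. It was 0.20 to 0.56 for 8 pairs, 0.027 between 0 and 4 h and 0.080 between 0 and 12 h. Whether arrays with the same number share a culture was not tested. With the arrays of the compared times alone no gene was lower at 12 h against 4 h, and none higher at 12 h against 0.5 h, where the count was also 0 after quantile normalization and with genes above the 20th percentile (ATG10 was then not tested). Leaving out each array gave 8 to 14 genes higher and 1 to 5 lower at 4 h against 0 h, 5 to 10 higher at 12 h against 0 h, 2 to 7 lower at 4 h against 1 h, 0 to 5 lower at 12 h against 4 h, and 0 to 1 higher at 12 h against 0.5 h. The number called among all genes also moved with single arrays. The cause was not tested. Calls against 0 h that held without each array in turn were 18 of 21 at 0.5 h, 19 of 22 at 1 h, 9 of 18 at 4 h and 10 of 15 at 12 h. ATG4, ATG10, ATG12, ATG14, ATG15, ATG16, ATG17 and ATG29 fell below the filter for dim genes, where values close to background limit what can be seen. R64 synonyms add SNX4 and VPS30 to the 34 genes.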
